A study of Mus musculus with 6 samples.

Results

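The genes described here form a set of 41 that is best known from neurons: microtubule and intermediate filament genes, calcium sensors, and genes of synaptic vesicles and secretory granules. They were listed by gene symbol for their known roles, with earlier results of these data known. Of the 41, 40 had a probe set that names a single gene, among 19938 genes tested in all. The remaining member, Vamp2, shares its probe set with another gene and was not analysed here. Stmn3 and Ina each had a second probe set, and the brighter over all 6 arrays was used.

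Melan-Ink4a is a melanocyte line from the skin of C57BL/6J mice, labelled as null for Ink4a-ARF1, and all 6 samples came from it. The 3 NRG1 samples were kept with 10 nM NRG1-b1, a form of neuregulin, for 21 days, and the 3 others are titled as untreated. The treatment text of the labels is the same for both groups, so the titles were used, and no time in culture is given for the untreated samples. Both groups were grown in medium with 200 nM of the phorbol ester TPA, a protein kinase C activator, and 200 pM cholera toxin, which raises cyclic AMP. RNA was taken at 90% confluence and measured on Affymetrix Mouse Gene 1.0 ST arrays. The line is a single immortal one, and nothing in the labels ties the 3 arrays of a group to separate cultures, so the p-values reflect the spread among these arrays alone, part or all of which may be technical. In a bulk sample, more cells with a transcript and more transcript per cell cannot be told apart.

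Neurons and melanocytes both descend from the neuroectoderm, melanocytes by way of the neural crest. Neurons build axons and dendrites on microtubules, which are made of tubulin and held by microtubule-associated proteins, and on neurofilaments. They release transmitters when calcium, read by synaptotagmins, lets SNARE proteins fuse a vesicle with the cell membrane, and they store peptides in granules rich in granins. Pigment cells are dendritic too and move and release their own lysosome-related organelle, the melanosome, with relatives of this machinery. Neuregulin acts on ERBB3, which pairs with ERBB2, a receptor system that melanocytes share with Schwann cells.

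All values are the deposited log2 signals, and a difference is the NRG1 mean minus the untreated mean on that scale. A gene was called, as a rise or a fall, where limma's adjusted p over all 19938 genes was under 0.05. With NRG1, 8 of the 40 measured members rose and 3 fell, and 29 were not called. Over all genes, 12.3% rose and 8.56% fell, and 20.9% were called in either direction. The median difference was -0.025 for the members and -0.029 for all genes, and the median size of the difference was 0.104 and 0.102. Differences went both ways, with 16 of the 40 members positive and 24 negative. With genes under the median level left out, the median was 0.11 for the members that remained and 0.0081 for all genes that remained. That level was the mean over all 6 arrays, so a gene can pass through its NRG1 arrays alone. Uchl1 did so, with a mean of 8.48 with NRG1 and 6.69 without. The members' median under this filter therefore depends in part on the rises themselves, and nothing is drawn from it. At 2-fold or more, 4 members rose (Vsnl1, Uchl1, Map1b and Tubb3) and 1 fell (Gpm6a), where 1.51% of all genes rose and 0.416% fell by that much. The other 6 called members differed by less than 0.5 on the log2 scale. The groups did not overlap for any of the 11 called members and for 2 of the 29 others, that is 13 of 40, against 36.7% of all genes. The count of rises went from 8 to 5 without NRG1 replicate 1 or without NRG1 replicate 2. The count of falls went from 3 to 1 without NRG1 replicate 2 or without untreated replicate 3, and to 5 without untreated replicate 2.

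**Figure D1:**
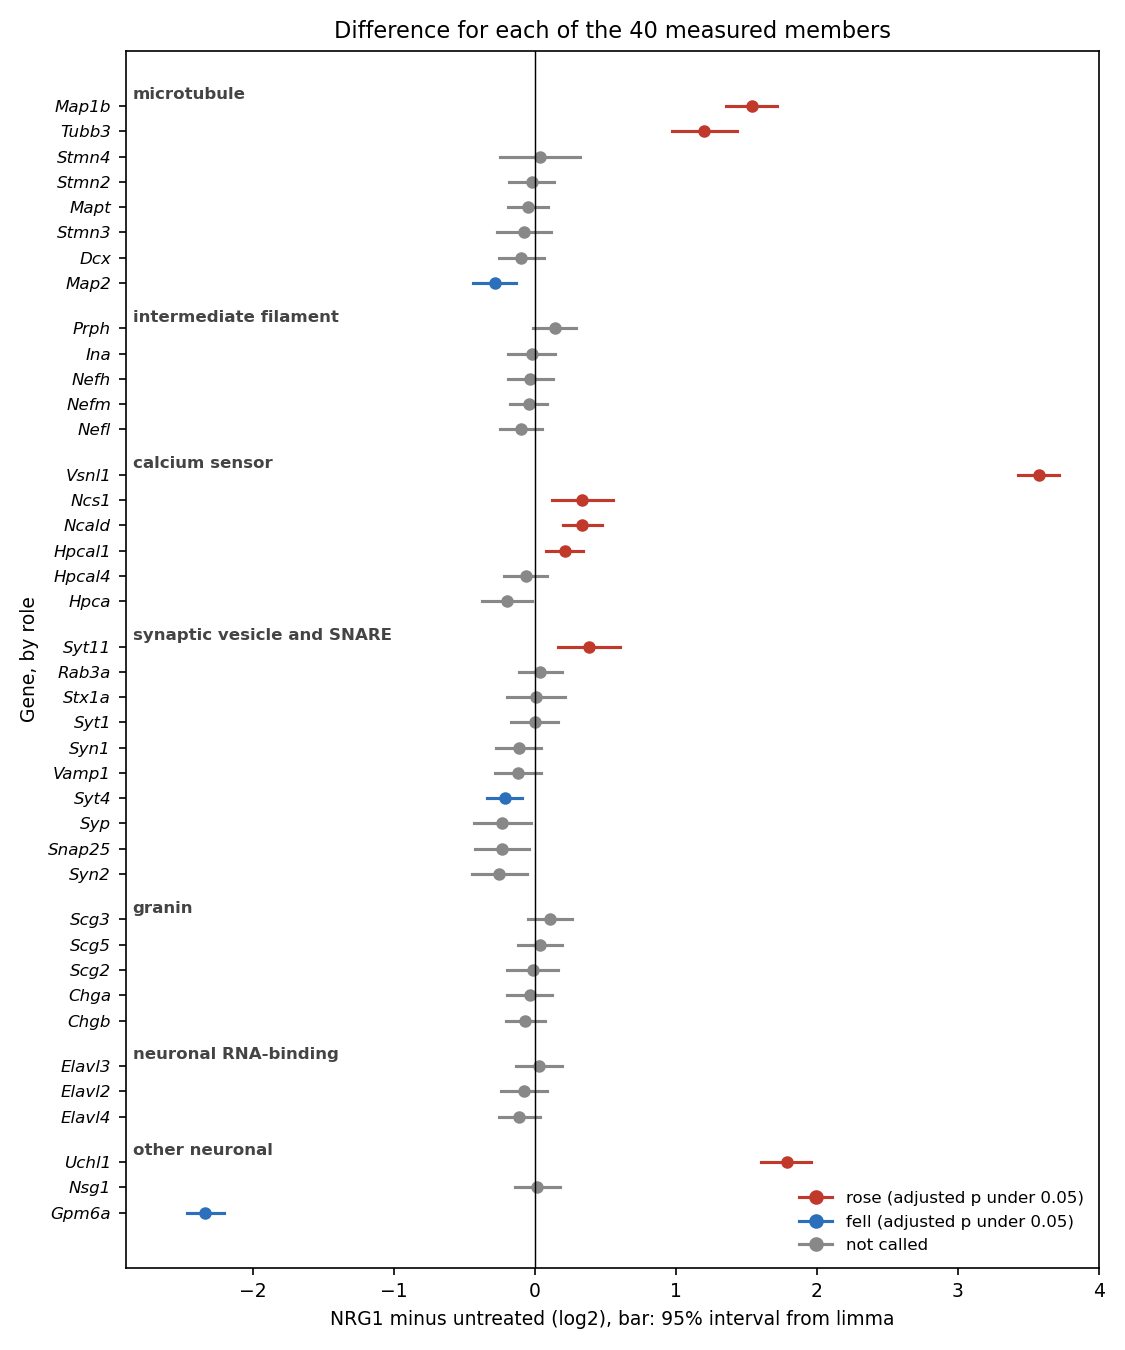
NRG1 minus untreated difference on the log2 scale (x axis) for each of the 40 measured members (y axis, grouped by role), with bars for the 95% interval from limma and 3 arrays per group. Rises are red, falls blue and uncalled genes grey, and 5 genes (Vsnl1, Uchl1, Map1b, Tubb3 and Gpm6a) lie outside the range from -0.5 to 0.5.

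The level at which a probe set carries no transcript is not given with the data. Probe sets of 1194 olfactory and vomeronasal receptor genes therefore served as a reference. Such genes were not expected in pigment cells, but some may be transcribed there, which was not tested. Their 6-array means had a median of 4.67 and a 95th percentile of 6.67. For 14 of the 40 members every array lay below 6.67, as it did for 36.1% of all genes. They were Map2, Dcx, Stmn2, Nefl, Nefm, Hpcal4, Ncs1, Snap25, Syt1, Chgb, Scg2, Scg3, Elavl2 and Elavl4. For these 14 genes a transcript could not be told from background on these arrays, and a difference in them can be understated. Map2 and Ncs1 are the 2 of them that were called. A level above 6.67 does not by itself show a transcript. The neuron marker Rbfox3 and the immune cell marker Cd3e had 6-array means of 7.03 and 7.04. Members such as Syp (7.05) and Nsg1 (7.04) lay at similar levels. So did the untreated means of Vsnl1 (7.16) and Map1b (7.14), whose folds may also be understated. Of the 1194 receptor probe sets themselves, 8 were called as higher and 43 as lower with NRG1, 4.27% in all, and the lower direction is that of Map2.

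**Figure D2:**
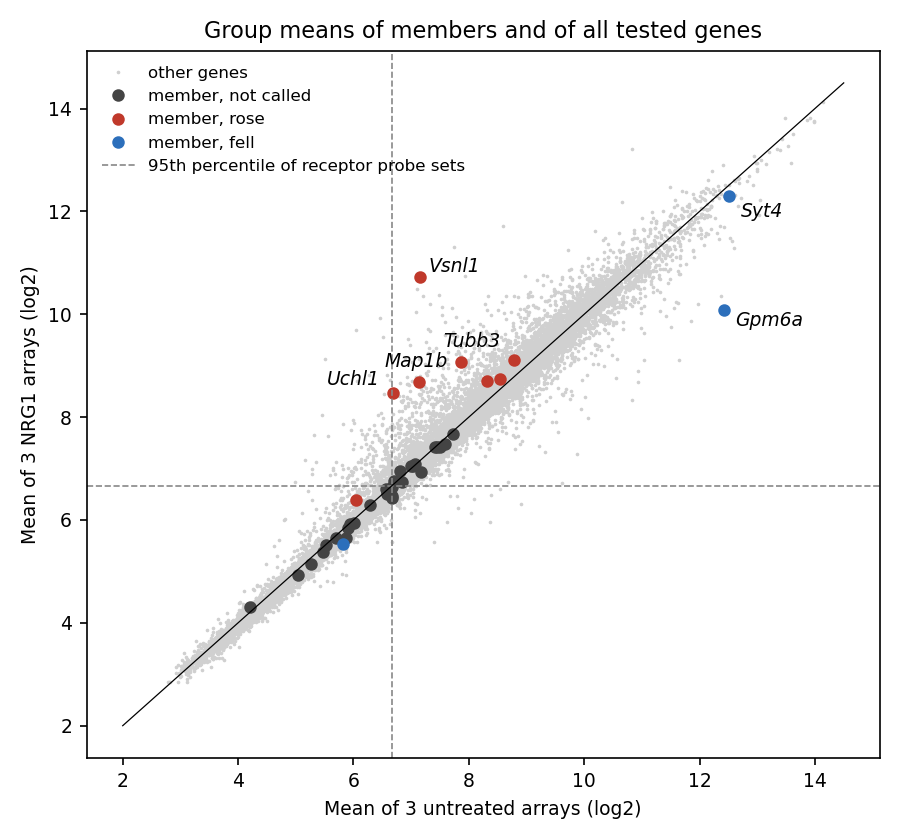
Mean of the 3 NRG1 arrays (y axis, log2) against the mean of the 3 untreated arrays (x axis, log2), for the 40 members (large points, coloured by call) over all 19938 tested genes (small grey points). Dashed lines mark 6.67, the 95th percentile of the receptor probe sets, and the solid line marks equal levels. Syt4 and Gpm6a are bright in untreated cells, Vsnl1 stands far above the line, and many uncalled members lie near or below the dashed lines.

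Counts by role are to be read beside the 12.3% of all genes that rose and the 8.56% that fell. Among the calcium sensors, 4 of 6 rose. These are small EF-hand proteins of the recoverin family that bind calcium and, most of them, then expose a lipid anchor for membranes. Vsnl1, visinin-like 1, a marker of injured neurons when released, read 10.80, 10.73 and 10.66 with NRG1 and 7.13, 7.23 and 7.12 without. All 3 NRG1 arrays were thus high and close together, and the groups were far apart. The mean rose 11.9-fold, from 7.16 ± 0.0616 to 10.73 ± 0.071 (SD, n = 3 each). The difference of 3.57 had an SE of 0.0649 (limma, adjusted p = 1.52e-09). Among the 2461 genes that rose, ordered by difference, Vsnl1 ranked 3.

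The other rises in this family were small. Ncald, neurocalcin delta, read 9.13, 9.14 and 9.07 with NRG1 and 8.84, 8.78 and 8.72 without, a difference of 0.34 ± 0.0614 (SE; limma, adjusted p = 0.00286). Hpcal1, hippocalcin-like 1, read 8.75, 8.74 and 8.74 with NRG1 and 8.52, 8.49 and 8.59 without, a difference of 0.21 ± 0.0584 (SE; limma, adjusted p = 0.0263). Neither pair of groups overlapped, but the Hpcal1 call ended without any 1 array except untreated replicate 3, with adjusted p from 0.0522 to 0.0948 in those 5 limma fits. It also ended with the replicate number as a block (limma, adjusted p = 0.0623). Ncs1, neuronal calcium sensor 1, which regulates exocytosis and ion channels, read 6.51, 6.49 and 6.13 with NRG1 and 6.05, 6.06 and 6.01 without. The third NRG1 array lay close to the untreated ones, and all 6 were below the receptor reference. Its difference was 0.34 ± 0.0959 (SE; limma, adjusted p = 0.0304), and the call ended without any 1 array except NRG1 replicate 3 (limma, adjusted p from 0.06 to 0.108). Hpca, hippocalcin, read 6.48, 6.49 and 6.43 with NRG1 and 6.57, 6.58 and 6.84 without, groups that did not overlap, at -0.20 ± 0.08 (SE; limma, adjusted p = 0.12). Hpcal4 was at -0.06 (95% interval -0.22 to 0.09).

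Of the 8 microtubule genes, 2 rose and 1 fell. Map1b encodes the microtubule-associated protein that appears earliest in growing axons. It read 8.82, 8.57 and 8.66 with NRG1 and 7.16, 7.24 and 7.03 without, a 2.91-fold rise of 1.54 ± 0.0816 (SE; limma, adjusted p = 5.66e-07). Tubb3 encodes the class III beta-tubulin that is widely used as a neuronal marker, and read 9.32, 8.99 and 8.88 with NRG1 and 7.85, 7.93 and 7.79 without. Its mean rose 2.30-fold, from 7.86 ± 0.0685 to 9.06 ± 0.228 (SD, n = 3 each), with an SE of 0.103 for the difference (limma, adjusted p = 1.66e-05). In both genes every NRG1 array was above every untreated array, and the first NRG1 array was the highest. Map2, the dendritic counterpart of Mapt, read 5.55, 5.47 and 5.56 with NRG1 and 5.69, 5.89 and 5.86 without. It differed by -0.28 ± 0.0696 (SE; limma, adjusted p = 0.0149), with all arrays below the receptor reference. The Map2 call was lost when NRG1 replicate 2 was left out (limma, adjusted p = 0.0587), and likewise when untreated replicate 3 was (adjusted p = 0.0517). The tau gene Mapt, the doublecortin gene Dcx of migrating young neurons, and Stmn2, Stmn3 and Stmn4, whose stathmin products bind free tubulin, were not called. Their differences ran from -0.0941 for Dcx to 0.0389 for Stmn4, and all their 95% intervals lay between -0.264 and 0.322. The second probe set of Stmn3 was at -0.18 ± 0.0775 (SE; limma over all probe sets, adjusted p = 0.148).

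None of the 5 neuronal intermediate filament genes was called by limma, and none passed at an unadjusted p under 0.05. Nefl, Nefm and Nefh encode the light, medium and heavy neurofilament chains, Ina encodes alpha-internexin and Prph the peripherin of peripheral neurons. Prph had the largest positive difference of the 5, with 6.99, 6.97 and 6.87 in the NRG1 group against 6.77, 6.74 and 6.90, a difference of 0.14 (limma, adjusted p = 0.18) between groups that overlapped. The 5 differences lay between -0.0987 and 0.141, and their 95% intervals between -0.248 and 0.291.

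Among the 3 remaining neuronal genes, 1 rose and 1 fell, both by more than 3-fold in measured signal. Uchl1, a ubiquitin hydrolase known as PGP9.5 that is abundant in neurons, read 8.54, 8.41 and 8.48 with NRG1 and 6.52, 6.79 and 6.76 without. The untreated arrays thus lay around the receptor reference of 6.67 and the NRG1 arrays well above it. The measured rise was 3.45-fold, 1.79 ± 0.0798 (SE; limma, adjusted p = 1.74e-07). With the untreated level near background, that fold may understate the change in transcript. Gpm6a, a 4-span membrane glycoprotein of the proteolipid family that promotes neurite growth, read 10.02, 10.11 and 10.12 with NRG1 and 12.43, 12.39 and 12.43 without. Its mean fell 5.04-fold, from 12.42 ± 0.0273 to 10.08 ± 0.0553 (SD, n = 3 each). The difference of -2.33 had an SE of 0.0595 (limma, adjusted p = 5.23e-09). Among the 1707 genes that fell it ranked 7. Nsg1, an endosomal protein gene of neurons, was at 0.02 (95% interval -0.14 to 0.18).

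**Figure D3:**
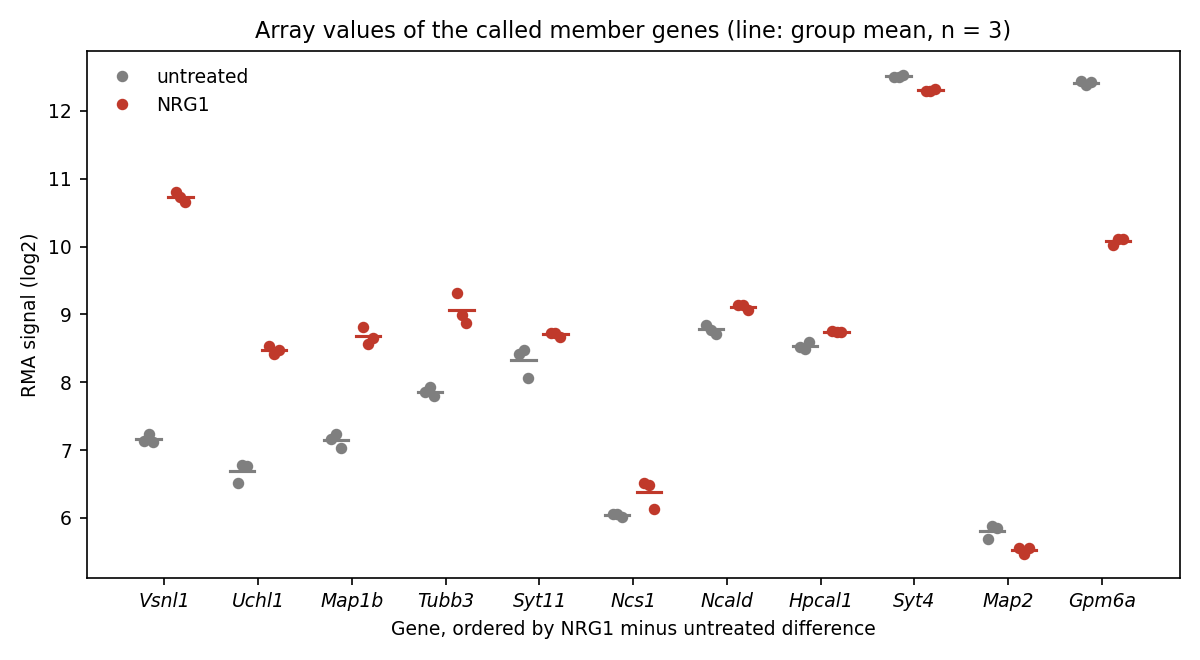
Deposited log2 signal (y axis) of the 11 called members (x axis, in the order of their difference) on each of the 3 untreated (grey) and 3 NRG1 arrays (red), with a line at each group mean. The points of the groups do not overlap in any of the 11 genes, and the gap is wide in Vsnl1, Uchl1, Map1b, Tubb3 and Gpm6a and narrow in the others.

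The RefSeq promoter table of assembly GRCm38.p6 held 46 windows for 30 of the 41 members, 9 of them called. Each window was read from 250 bases before to 30 after an annotated transcript start. The 5 members with the largest differences are shown so that the start regions of genes that rose can be set beside that of Gpm6a, which fell. Scg2 is added as a granin gene that was not called and whose window holds the cyclic AMP element. Sequences run 5′ to 3′ along the gene, and capitals mark matches on either strand to the letters of a CRE (TGACGTCA), a REST half-site (TTCAGCACC), a SOX core (AACAAT), a GC box (GGGCGG) or a CCAAT box, which its name spells.
Vsnl1, upstream start (GRCm38.p6 chr12:11436549-11436828, minus strand): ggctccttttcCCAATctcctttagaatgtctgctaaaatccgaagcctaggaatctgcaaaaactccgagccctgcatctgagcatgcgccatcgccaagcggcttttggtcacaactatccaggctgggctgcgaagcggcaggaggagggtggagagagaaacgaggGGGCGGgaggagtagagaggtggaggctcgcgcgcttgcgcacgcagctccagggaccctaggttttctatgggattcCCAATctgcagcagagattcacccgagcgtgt
Vsnl1, downstream start (GRCm38.p6 chr12:11435622-11435901, minus strand): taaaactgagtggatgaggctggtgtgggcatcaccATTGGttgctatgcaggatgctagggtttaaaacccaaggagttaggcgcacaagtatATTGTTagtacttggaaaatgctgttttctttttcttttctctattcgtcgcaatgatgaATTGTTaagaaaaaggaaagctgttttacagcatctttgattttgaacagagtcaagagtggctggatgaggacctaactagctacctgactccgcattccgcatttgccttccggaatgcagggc
Uchl1 (GRCm38.p6 chr5:66675871-66676150, plus strand): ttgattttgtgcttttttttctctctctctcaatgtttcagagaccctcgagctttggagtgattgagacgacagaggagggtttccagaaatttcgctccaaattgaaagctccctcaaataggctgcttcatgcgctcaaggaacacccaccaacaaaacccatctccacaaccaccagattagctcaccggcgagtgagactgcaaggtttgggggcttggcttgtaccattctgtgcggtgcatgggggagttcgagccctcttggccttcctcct
Map1b (GRCm38.p6 chr13:99516573-99516852, minus strand): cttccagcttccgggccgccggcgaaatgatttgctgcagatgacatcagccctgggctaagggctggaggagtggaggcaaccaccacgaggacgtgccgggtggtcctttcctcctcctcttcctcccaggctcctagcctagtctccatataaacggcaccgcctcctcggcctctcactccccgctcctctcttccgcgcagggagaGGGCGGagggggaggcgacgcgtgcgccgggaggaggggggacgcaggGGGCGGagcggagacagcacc
Tubb3 (GRCm38.p6 chr8:123411303-123411582, plus strand): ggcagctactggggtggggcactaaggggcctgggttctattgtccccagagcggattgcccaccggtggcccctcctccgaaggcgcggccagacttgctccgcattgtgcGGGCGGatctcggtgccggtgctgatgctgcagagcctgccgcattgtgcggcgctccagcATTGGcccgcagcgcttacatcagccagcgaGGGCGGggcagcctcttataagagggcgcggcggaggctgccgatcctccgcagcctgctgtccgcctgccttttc
Gpm6a, first start (GRCm38.p6 chr8:54779184-54779463, plus strand): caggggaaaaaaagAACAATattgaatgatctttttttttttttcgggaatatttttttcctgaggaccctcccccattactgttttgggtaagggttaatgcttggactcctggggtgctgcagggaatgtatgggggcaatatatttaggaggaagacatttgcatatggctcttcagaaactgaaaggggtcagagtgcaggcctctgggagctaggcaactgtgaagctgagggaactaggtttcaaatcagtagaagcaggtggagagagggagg
Gpm6a, second start (GRCm38.p6 chr8:54954478-54954757, plus strand): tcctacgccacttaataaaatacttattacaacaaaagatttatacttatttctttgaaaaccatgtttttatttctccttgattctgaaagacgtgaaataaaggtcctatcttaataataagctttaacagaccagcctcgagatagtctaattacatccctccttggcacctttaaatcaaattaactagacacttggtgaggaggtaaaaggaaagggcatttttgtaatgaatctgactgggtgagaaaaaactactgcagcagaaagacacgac
Scg2 (GRCm38.p6 chr1:79439997-79440276, minus strand): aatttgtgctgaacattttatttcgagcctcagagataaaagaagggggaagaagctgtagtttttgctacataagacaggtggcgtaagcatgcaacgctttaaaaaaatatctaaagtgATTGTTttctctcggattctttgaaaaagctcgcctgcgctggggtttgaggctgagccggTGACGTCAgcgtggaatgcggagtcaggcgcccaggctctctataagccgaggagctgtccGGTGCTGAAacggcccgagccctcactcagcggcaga

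The Uchl1 window and the second Gpm6a window held none of the marked motifs, and the Map1b window only GC boxes. A CRE, bound by the cyclic AMP factor CREB, lay in 3 of the 46 member windows, against 1.74% of all 32851 windows of that length. The 3 genes were Scg2 (68 bases before the start), Chgb (72 before) and Syn1 (159 before), and none of them was called. The REST half-site, part of the element through which REST silences neuronal genes, lay in 2 windows, those of Scg2 and Syn1, against 0.335% of all windows. GC boxes lay in 27 of 46 windows (34.7% of all) and CCAAT boxes in 20 of 46 (36.1% of all), among them Vsnl1 and Tubb3 with both. The SOX core lay in 4 of 46 windows (10.3% of all). These were the first Gpm6a window, the downstream Vsnl1 window and windows of Scg2 and Elavl4, which were not called. Also searched were an AP-1 site (TGANTCA, in 0 member windows and 7.46% of all), an E-box (CACGTG, in 1 and 6.79%), the CATGTG core of the M-box (in 5 and 13.4%) and an ETS site (CCGGAAGT, in 0 and 3.72%). All were searched on both strands. Some windows of alternative starts overlap, as in Dcx, Elavl2 and Elavl4, the members' windows had a median GC content of 57.3% against 52.5% for all, and a match is only a match of letters.

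Of the 10 measured genes of synaptic vesicles and SNARE fusion, 1 rose and 1 fell, both synaptotagmin genes. Syt11 encodes a synaptotagmin that does not bind calcium and restrains vesicle uptake. It read 8.72, 8.72 and 8.67 with NRG1 and 8.42, 8.48 and 8.07 without, a difference of 0.38 ± 0.0985 (SE; limma, adjusted p = 0.0192). The third untreated array stood apart as low, while the NRG1 arrays were close together. The Syt11 call ended without NRG1 replicate 1 (limma, adjusted p = 0.0519) and without NRG1 replicate 2 (adjusted p = 0.053). Syt4, a synaptotagmin of dense-core granules, read 12.30, 12.30 and 12.32 with NRG1 and 12.50, 12.50 and 12.53 without. That difference of -0.21 ± 0.0557 (SE; limma, adjusted p = 0.022) was small, between groups that did not overlap, at a bright signal. The Syt4 call ended without any 1 array except untreated replicate 2 (limma, adjusted p from 0.0589 to 0.0746), with each array centred on its median (adjusted p = 0.059) and with the replicate number as a block (adjusted p = 0.0587).

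The other vesicle genes were not called. Synaptophysin (Syp), synapsin 2 (Syn2) and Snap25, a vesicle membrane protein, a vesicle tether and a membrane SNARE, had lower NRG1 means, by -0.23, -0.25 and -0.23. Their adjusted p-values were 0.11, 0.0691 and 0.0903 (limma), and each was under 0.05 before adjustment. Snap25 lay below the receptor reference on every array, and the Syn2 arrays lay on both sides of it. The receptor probe sets were themselves called lower (43) more often than higher (8). Syn2 read 6.31, 6.44 and 6.52 with NRG1 and 6.79, 6.50 and 6.73 without, so the groups overlapped by the second untreated array. Without untreated replicate 2, Syn2 was called at -0.33 (limma, adjusted p = 0.0147) and Syp at -0.30 (adjusted p = 0.049), and without NRG1 replicate 3, Snap25 was called at -0.30 (adjusted p = 0.0455). Snap25 was also called with the replicate number as a block (limma, adjusted p = 0.0479). The calcium sensor of fast release, Syt1, had a mean of 6.29 in both groups (95% interval of the difference -0.17 to 0.17) and below the receptor reference. Syn1, Vamp1, the syntaxin gene Stx1a and the vesicle GTPase gene Rab3a differed by -0.11, -0.12, 0.01 and 0.04. All 8 intervals lay between -0.442 and 0.213.

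The granin genes and the neuronal RNA-binding genes gave no call by limma, and none passed at an unadjusted p under 0.05. Chga, Chgb, Scg2 and Scg3 encode granins, which pack peptide granules, and Scg5 a chaperone of the granule protease PC2. Their differences lay between -0.0654 and 0.111, and the highest array of any of them was Scg5's 6.85. Elavl2, Elavl3 and Elavl4 encode the Hu proteins that stabilise neuronal messages, and differed by -0.07, 0.03 and -0.11, with intervals between -0.256 and 0.193. For each of the 29 uncalled members the 95% interval lay between -0.442 and 0.322, so that a change of 2-fold was outside it on this scale.

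Genes of the same machinery outside the set were read from 9 further lists. Over all genes 12.3% rose and 8.56% fell, and no list was tested against these shares. Of 13 other tubulin genes, 6 rose and 1 fell, with rises of 1.12 for Tubb6, 0.97 for Tubb2b and 0.81 for Tubb2a, and a fall of 0.29 for the centriolar Tubd1. The count of falls was 0 without NRG1 replicate 1 or 2 or untreated replicate 1. Tubulin genes are alike in sequence, and probe sequences were not used here, so the share of each in these signals was not tested. Of 34 other microtubule and growth cone genes, 9 rose and 1 fell. Stmn1, the stathmin of dividing cells, rose by 1.47 ± 0.125 (SE), Marcksl1 by 0.92 and the ubiquitous Map4 by 0.68, and Dclk1, a doublecortin-like kinase gene, fell by 0.41. Without untreated replicate 2 the falls were 2. Stmn1 and Map4 rose, while the neuronal Stmn2 to Stmn4 and Mapt were not called. Stmn2 lay below the receptor reference on every array and Stmn4 on both sides of it, so a missing call there says little. The difference between the genes that rose and those not called was not tested.

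Of 11 other intermediate filament genes, 5 rose and 1 fell. Nes, the nestin gene of neural precursors, rose by 1.63, the lamin genes Lmnb1 and Lmnb2 by 1.10 and 0.34, and Vim fell by 0.28. The count of rises was 3 without any 1 of the NRG1 arrays, without untreated replicate 3 and with the replicate number as a block. Of 25 other calcium sensor and EF-hand genes, 3 rose and 2 fell, with S100a6 at 0.64, Efhd2 at 0.36, Calm2 at 0.26, Chp1 at -0.42 and S100b at -0.27. Without NRG1 replicate 3 the falls were 1.

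Of 34 genes listed as other vesicle genes, 3 rose and 3 fell. Gpm6b was counted in this list, although its paralogue Gpm6a, a membrane glycoprotein gene, was placed with the remaining neuronal genes above. Gpm6b rose by 1.99 ± 0.0582 (SE; limma, adjusted p = 1.15e-08), from 7.14 ± 0.0381 to 9.13 ± 0.0349 (SD, n = 3 each), while Gpm6a fell by 2.33. Bin1 rose by 0.43 and Rab3d by 0.27, and Syngr1 fell by 0.78, Rab27a, which carries melanosomes to the cell edge, by 0.59 and Synj1 by 0.24. Of 23 other synaptotagmin-like genes, 1 rose (Esyt1, 0.39) and 2 fell. Sytl2, an effector of Rab27a, fell by 1.45 ± 0.0642 (SE; limma, adjusted p = 1.66e-07) and Esyt2 by 0.20. The count of falls was 1 when any 1 array was left out except untreated replicate 2, and with the replicate number as a block, and the count of rises was 2 without NRG1 replicate 3 or untreated replicate 2.

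Of 36 other SNARE genes and regulators, 2 rose (Ykt6 by 0.37 and Sec22b by 0.29, both of the secretory pathway) and 4 fell. The falls were led by Stxbp5 at -0.47, Stx11 at -0.45 and Cplx3 at -0.27. The count of falls was 2 without NRG1 replicate 2 or 3 or untreated replicate 1 or 2, and 8 after quantile normalization of the tested genes. Of 18 genes of granule processing, 3 rose and 0 fell: the priming factor gene Cadps by 0.71, the amidating enzyme gene Pam by 0.53 and the carboxypeptidase gene Cpe by 0.19. Of 27 neuronal fate factors, 4 rose and 0 fell. These were the splicing factor gene Rbfox2 (0.69), Rcor2, a partner of REST (0.62), Ptbp1, which holds back neuronal splicing (0.34), and the ubiquitous Hu gene Elavl1 (0.27). In each of the last 2 lists the falls were 1 under a single leave-out, that of untreated replicate 2 for granule processing and of NRG1 replicate 2 for the fate factors.

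**Figure D4:**
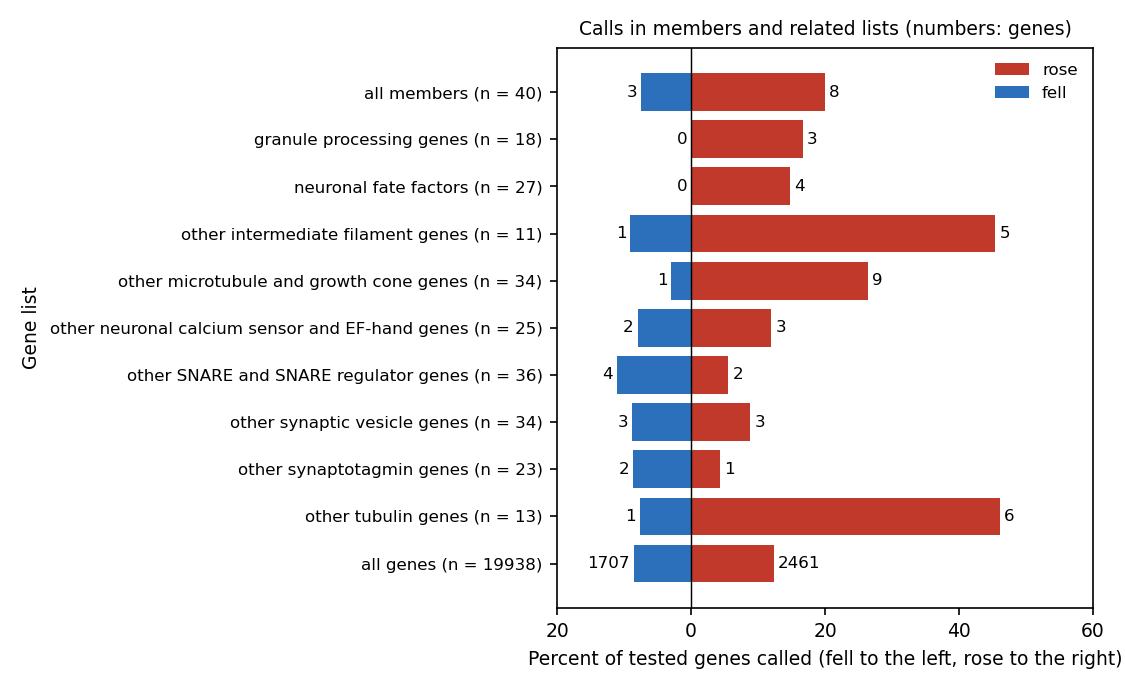
Percent of tested genes called in the members, in 9 lists of related genes and in all genes (x axis; falls in blue to the left, rises in red to the right), with the number of genes called at each bar and the number tested beside each list name. The members had 8 rises and 3 falls of 40, the other tubulins 6 and 1 of 13, and the other SNARE genes 2 and 4 of 36.

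Markers of cell types were read beside these values. All 12 melanocyte markers lay above the receptor reference, 10 fell and 1 rose, and their mean level was 10.96 to 11.01 over the NRG1 arrays and 11.61 to 11.64 over the untreated ones. Of 10 measured neuron markers 1 rose (Dbh by 0.31) and 1 fell (Gad2 by 0.19). Dbh and Gad2 were among the 7 of the 10 that were below the receptor reference on every array. The mean level of the 10 was 6.11 to 6.15 with NRG1 and 6.09 to 6.22 without. Among the 9 markers of Schwann cells and glia that were measured, 3 rose (Cnp by 0.63, Fabp7 by 0.28 and Gfap by 0.24). Every untreated array of Fabp7 and Gfap was below the receptor reference. The other 6 were not called, and the median difference of the 9 was 0.011. Their mean level was 7.95 to 7.99 with NRG1 and 7.84 to 7.93 without. Of 6 neuroendocrine markers 1 fell (Slc18a1, -0.33), with 6.34 to 6.43 and 6.37 to 6.58. Slc18a1 was above the receptor reference only in untreated replicate 3. Fibroblast, keratinocyte, immune and endothelial markers gave 2 rises (Col1a1 and Cd68) and 0 falls among 33 measured. The part of any of these in the members' differences was not tested.

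Over the whole series, 2461 genes rose and 1707 fell, so that rises were 59% of the calls. After quantile normalization of the tested genes alone, 2257 rose and 2396 fell, 48.5% of the calls being rises. The members then gave 7 rises and 4 falls. Array medians lay between 6.99 and 7.07, and arrays correlated at 0.996 to 0.997 within a group and at 0.981 to 0.986 between groups, across genes. An exact permutation test of a single gene with 3 arrays against 3 cannot go below p = 0.1.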

How the data were processed

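The authors deposited 1 table of log2 values for 35557 probe sets on 6 arrays, made with RMA and GCOS per the submitters' processing notes, whose settings and versions are not known here. RMA usually corrects background, normalizes across arrays and summarises probes. That the scale is log2 follows from the range of the values, 2.34 to 14.6. Groups and replicate numbers came from the sample titles. The platform annotation gave the names of probe sets: 21789 had 1 gene, 1621 several and 12147 none, and names were updated through Entrez numbers to GRCm38.p6. Genes were tested with limma 3.58.1 in R 4.3.3 (2 group means, eBayes, 2-sided), with Benjamini-Hochberg adjustment over 19938 genes and no filter on level. The fit was tested on simulated data. All members are accounted for, called ones in full. In each related list up to 3 called genes per direction, those with the largest differences, are named. The neuronal fate factors are an exception, with all 4 rises named. The members and lists were chosen with earlier results of these data known, so their counts are descriptions. Alternatives were quantile normalization, median centring, filters on dim genes, other uses of probe sets, a trend with a robust prior, array weights, a replicate block, leaving out each array, and a minimum change of 1.2-fold. No depth exists for arrays, and 3 per group limit the precision.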

Additional observations from a re-analysis of the deposited data

How the results depend on the processing

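Vsnl1, Uchl1, Map1b, Tubb3 and Gpm6a were called in the same direction under all 17 alternatives, and 6 of the 11 called members lost their call under at least 1. Ncald lost it only with the minimum change of 1.2-fold. That setting left 4 rises and 1 fall among the members and 883 rises and 342 falls among all genes. With array weights 5 members and 2881 of all genes fell. Leaving out 1 array at a time gave 5 to 7 rises and 1 to 5 falls among the members. With genes under the median level over all 6 arrays left out, the members' median difference was 0.11 and that of all genes 0.0081. This filter lets in genes such as Uchl1 through their NRG1 arrays alone, so nothing is drawn from that median. The normalization over the tested genes alone was chosen after seeing the data; it ended the call of Hpcal1 (0.15; limma, adjusted p = 0.103) and called Syn2 (-0.23; adjusted p = 0.0441). Quantile normalization over all probe sets gave 8 rises and 3 falls. The cause of these shifts was not tested.

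The shared replicate numbers gave no sign of pairing. Deviations of same-numbered arrays from their group means correlated at -0.095, -0.16 and 0.074, and 1 of 3 NRG1 arrays correlated best with its own number. With only 3 arrays per group, these deviations are tied to each other, so the check cannot show that the arrays were unpaired. The replicate block gave 7 rises and 3 falls among the members, and 2198 and 1411 among all genes. Signals of the 14 members below the receptor reference limit what can be said of them.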
